A study of Homo sapiens with 10 samples.

Results

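The 126 genes described here are the protein-coding rows of the deposited expression table that start between 20 and 40 Mb on the short arm of chromosome 8 (8p). Out of 58735 rows in all, 19951 are protein-coding, and 131 of those start in this 20 Mb window. A total of 5 of the 131 were left out by the rule that defined the set and are not reported. The set was chosen by its measured values, because its genes were lower in drug-adapted colonies than in untreated cells, so every difference between a colony and DMSO given below for these genes is a description of that choice and carries no test. Of the 126 members, 78 reached 1 FPKM (fragments per kilobase of gene, scaled to library size) in at least 2 of the 10 libraries and entered the gene-wise tests. The other 48 did not.

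TPC-1 is a line of papillary thyroid carcinoma cells that carries the CCDC6-RET fusion, and BLU667 (pralsetinib) is a RET kinase inhibitor. RNA was sequenced from 5 groups with 2 biological replicates each. The adapted groups were colonies BR8, BR10 and BR16, each 1 colony established from TPC-1 cells kept in 5 µM BLU667, for more than 50 days per the sample labels and for more than 5 months per the series' design. The other groups were parental TPC-1 cells given 5 µM BLU667 for 24 h and parental cells given the solvent DMSO for 24 h, and all 5 groups share the fusion. Because each colony was sampled as 2 replicates of 1 colony, p-values measure the spread between replicates and not the spread between independently adapted colonies.

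The short arm of chromosome 8 is one of the regions most often lost in human carcinomas, and it carries many genes that work in unrelated processes. Among the members are the cluster of TRAIL receptors, which start apoptosis when the ligand TRAIL binds them or act as its decoys, subunits of the phosphatases PP2A and calcineurin, a helicase for DNA repair, parts of RNA polymerase complexes, and the ligand neuregulin. RNA was measured in this series, and DNA was not analysed here.

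The libraries held 15243703 to 21904245 reads in genes. Of the thyroid follicular markers, the transcription factor gene PAX8 stood at 35.3 to 94.7 FPKM, whereas TG, TSHR, SLC5A5 and NKX2-1, which mark differentiated thyroid cells, stayed at or below 0.23 FPKM in the 10 libraries. Markers of immune, endothelial and erythroid cells were all below the filter. The fibroblast markers summed to 5.66 to 7.40 FPKM in BR8, 0.750 to 0.848 in BR10 and 3.33 to 3.84 in BR16. Their sums were 13.1 to 17.5 in BLU667-treated cells and 3.09 to 3.32 in DMSO-treated cells. The gene LUM made up most of the BR8 sum (mean 5.52 FPKM), and PDGFRB most of the BLU667 sum (mean 13.6 FPKM). COL1A1 reached at most 2.23 FPKM, and COL1A2 and DCN were at 0 in the 10 libraries. The part of the fibroblast markers in the results was not tested. The 2 DMSO libraries differed from each other in step with the GC content of the genes, with a Spearman correlation of -0.80 across the 78 tested members, so values with that trend removed are given where it matters. Genes that overlap another row of the table (52 of the 78) are less certain, since the libraries did not keep strand and reads from overlapping genes cannot be told apart.

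The members took a smaller share of all reads in each of the 6 colony libraries than in any parental library. They held 0.356% and 0.355% of the reads in BR8, 0.351% and 0.349% in BR10, 0.344% and 0.351% in BR16 and 0.586% and 0.612% in BLU667-treated cells, against 0.596% and 0.581% in DMSO-treated cells. The colonies lay close to each other, the BLU667 and DMSO libraries overlapped, and every colony library lay below every parental one. Summed over the 126 members, expression was 619 and 623 FPKM in BR8, 605 and 623 in BR10, 638 and 643 in BR16 and 996 and 1031 in BLU667-treated cells, against 1135 and 1084 in DMSO-treated cells. In bulk RNA, fewer expressing cells and less RNA per cell cannot be told apart.

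**Figure D1:**
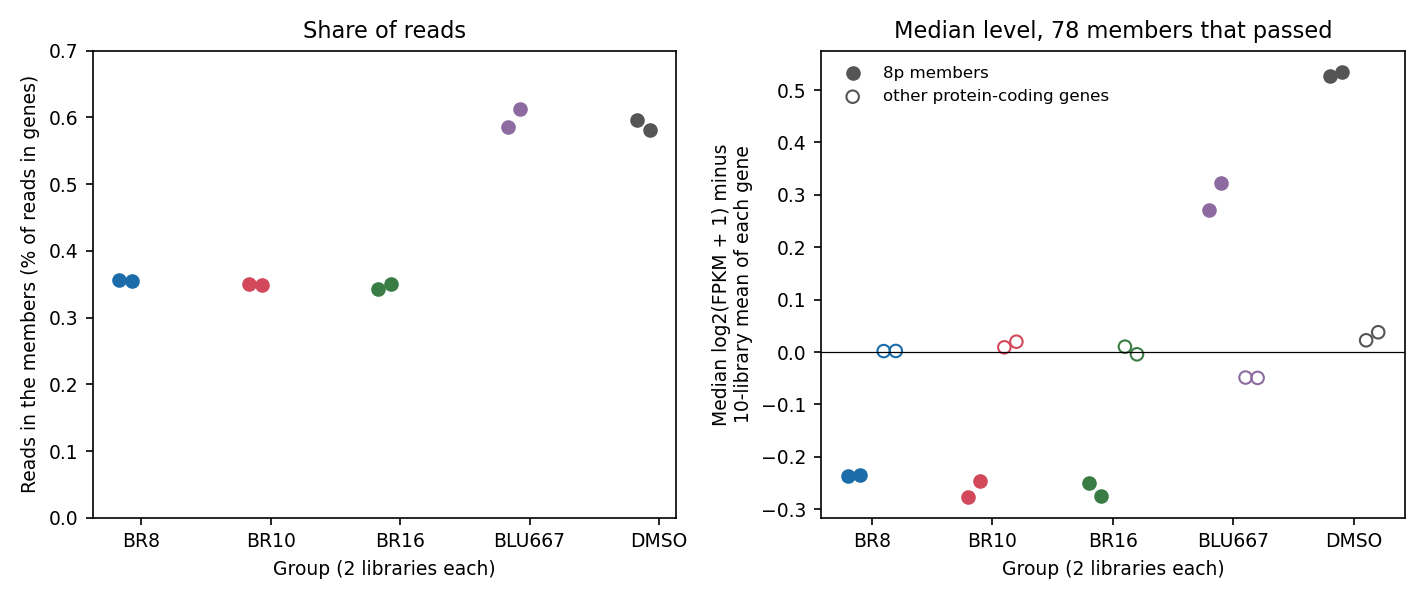
Each point is 1 library, with colonies, BLU667 and DMSO from left to right. The left panel gives the percent of reads in genes that fell in the 126 members, from 0.344% to 0.356% in the 6 colony libraries and from 0.581% to 0.612% in the 4 parental ones. The right panel gives the median, over the 78 tested members (filled) or the other tested protein-coding genes (open), of each gene's log2(FPKM + 1) minus its mean over the 10 libraries.

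Relative to DMSO, the typical member stood at about the same reduced level in every colony. Among the 76 tested members with a mean of at least 1 FPKM in DMSO-treated cells, the median level was 48.1% of the DMSO mean in BR8, 48.7% in BR10 and 49.9% in BR16. The same medians over 10123 other protein-coding genes were 93.1%, 95.2% and 95.0% in the same order. In parental cells after 24 h of BLU667 the members' median was 79.7% of DMSO, beside 91.0% for the other genes. The middle 50% of members ran between 35.8% and 69.3% of DMSO in BR8, between 37.7% and 67.3% in BR10 and between 38.2% and 66.9% in BR16.

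Gene by gene, differences are given as log2(FPKM + 1) with the standard error of the fit, and a gene is called where limma's Benjamini-Hochberg adjusted p is below 0.05 over all 13927 tested genes. In BR8, 62 of the 78 members were called lower than DMSO, 5 higher and 11 neither, where 27.3% of all tested genes were called lower and 24.0% higher. In BR10 the counts were 60 lower, 2 higher and 16 neither, against 21.5% lower and 19.2% higher over all genes. In BR16 they were 61 lower, 4 higher and 13 neither, against 23.6% and 21.9%. The members' median differences were -0.86 in BR8, -0.85 in BR10 and -0.80 in BR16, and those of the other tested protein-coding genes were -0.05, -0.03 and -0.02 in the same order.

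The 3 comparisons share the DMSO libraries. With that in mind, 50 of the 78 members were called lower in all 3 colonies (9.45% of all tested genes were) and 2 were called higher in all 3 (10.4%). All 6 colony libraries lay below both DMSO libraries for 62 members, where 17.3% of tested genes did so, and above both for 3 (17.8%). All 6 lay below all 4 parental libraries for 43 members (4.88%) and above them for 1 (6.14%). Against BLU667-treated parental cells, which share the drug, 55 members were lower and 7 higher in BR8 (27.4% and 30.0% of tested genes), 56 lower and 10 higher in BR10 (25.6% and 27.9%) and 50 lower and 9 higher in BR16 (26.7% and 32.1%). These comparisons use the same colony libraries that chose the set.

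**Figure D2:**
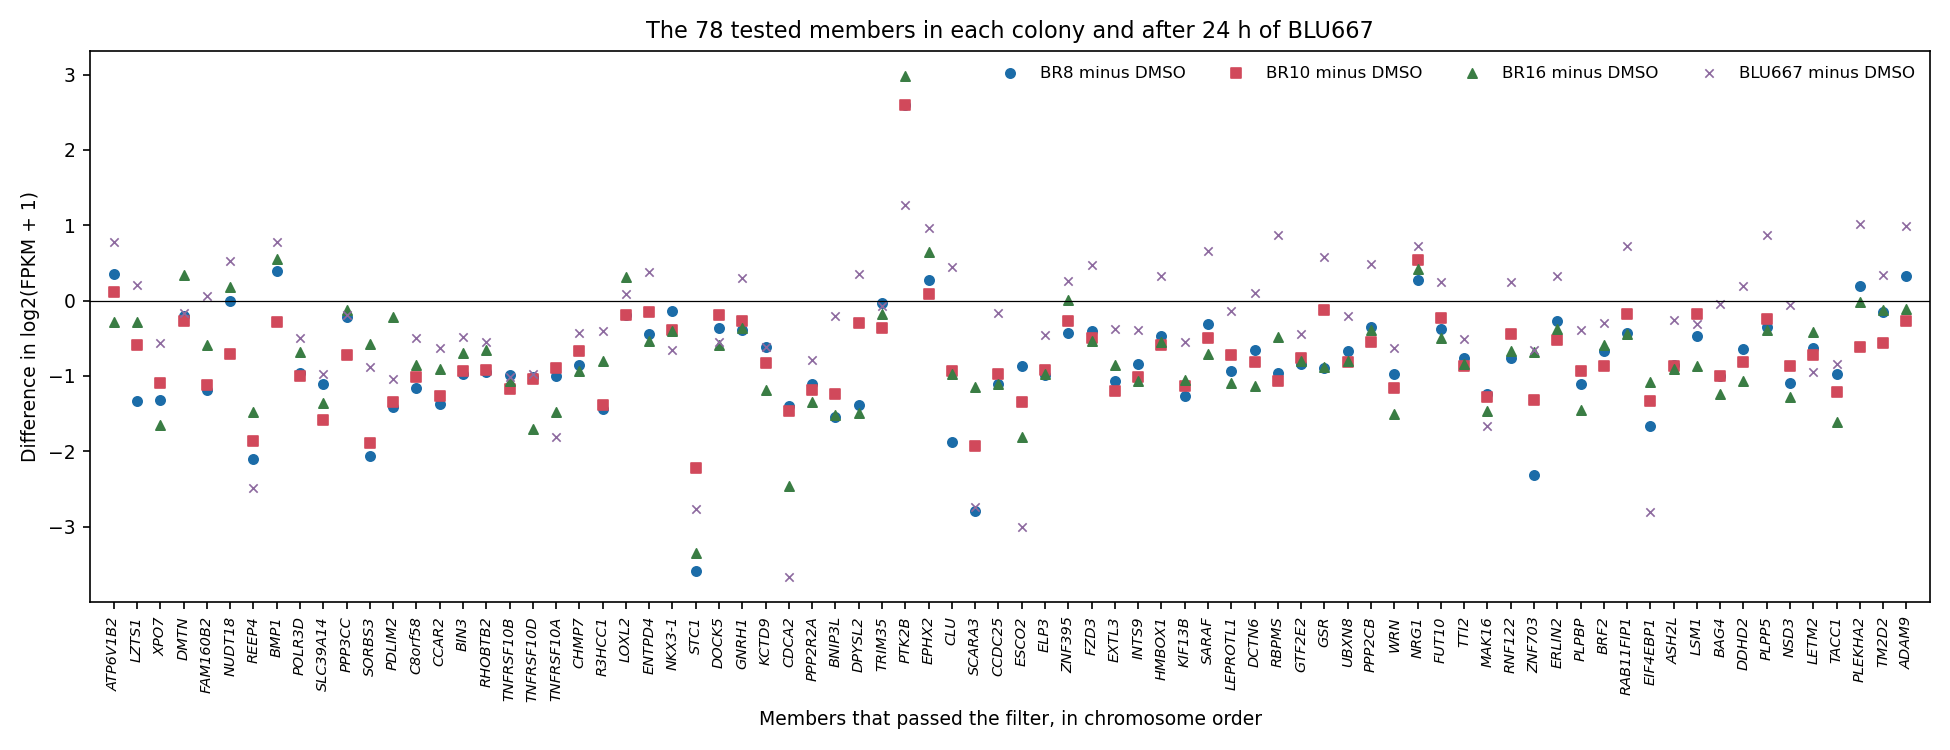
The 78 tested members stand in chromosome order on the horizontal axis, with their difference in log2(FPKM + 1) on the vertical axis for BR8, BR10, BR16 and 24 h of BLU667, each minus DMSO. Most colony symbols lie between 0 and -2 along the whole window, STC1 reaches -3.59 in BR8, and PTK2B reaches 2.98 in BR16.

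Taken as the mean of the 3 colonies minus DMSO, 66 members were called lower and 3 higher (26.3% and 22.9% of tested genes), with a median of -0.85. When the 3 colony means were treated as 3 replicates, so that the error held the spread between colonies, 28 members were called lower. The share of all tested genes called under this setting is not given here, so the 28 cannot be set against a background. Of the 69 calls, 29 were kept with the same sign under that setting.

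The low stretch reached beyond both ends of the window. Nearest the lower end, the genes outside were PSD3 (log2 -1.11 ± 0.08 in BR8, -0.79 ± 0.08 in BR10 and -1.23 ± 0.08 in BR16), SH2D4A (-0.28 ± 0.10 in BR8, -0.77 ± 0.10 in BR10 and -0.68 ± 0.10 in BR16) and INTS10 (-0.70 ± 0.10 in BR8, -0.84 ± 0.10 in BR10 and -1.03 ± 0.10 in BR16). Those just inside were ATP6V1B2 (0.36 ± 0.08 in BR8, 0.12 ± 0.08 in BR10 and -0.29 ± 0.08 in BR16), LZTS1 (-1.33 ± 0.15 in BR8, -0.60 ± 0.15 in BR10 and -0.28 ± 0.15 in BR16) and XPO7 (-1.32 ± 0.09 in BR8, -1.09 ± 0.09 in BR10 and -1.66 ± 0.09 in BR16). At this end the 3 genes outside were below 0 in each colony, and of the 3 inside ATP6V1B2 was not. Nearest the upper end, the genes inside were PLEKHA2 (0.20 ± 0.10 in BR8, -0.62 ± 0.10 in BR10 and -0.01 ± 0.10 in BR16), TM2D2 (-0.15 ± 0.11 in BR8, -0.56 ± 0.11 in BR10 and -0.13 ± 0.11 in BR16) and ADAM9 (0.32 ± 0.09 in BR8, -0.27 ± 0.09 in BR10 and -0.11 ± 0.09 in BR16), which differed little or in both directions. Those just outside were GOLGA7 (-0.58 ± 0.11 in BR8, -0.70 ± 0.11 in BR10 and -0.65 ± 0.11 in BR16), GINS4 (-1.25 ± 0.13 in BR8, -1.06 ± 0.13 in BR10 and -1.5 ± 0.13 in BR16) and GPAT4 (-0.67 ± 0.09 in BR8, -0.69 ± 0.09 in BR10 and -0.62 ± 0.09 in BR16), which were below 0 in each colony. GINS4 encodes a subunit of the replicative helicase, and GPAT4 an enzyme of glycerolipid synthesis.

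Genes on either side of the window played no part in the rule. They were measured in the same colony and DMSO libraries that chose the set, so their counts are also a description. Over all tested genes, 27.3%, 21.5% and 23.6% were called lower in BR8, BR10 and BR16, and 24.0%, 19.2% and 21.9% higher. Between 5 and 20 Mb, 32 genes were tested, and 24, 22 and 23 of them were called lower in BR8, BR10 and BR16, with 1, 4 and 2 called higher. Their medians were -0.63 in BR8, -0.71 in BR10 and -0.85 in BR16. Between 40 and 50 Mb, 17, 15 and 19 of 22 genes were called lower and 2, 1 and 1 higher, with medians of -0.67, -0.55 and -0.74. The 5 genes before 5 Mb had medians of 0.00, -0.28 and -0.11. Of the 190 genes between 50 and 140 Mb on the long arm, 69, 71 and 109 were called lower and 41, 38 and 31 higher. Their medians were -0.17, -0.22 and -0.43, and became -0.33, -0.31 and -0.30 with the GC trend removed. This part of the long arm was thus also below 0 in each colony, by less than the low stretch.

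The gene nearest the tip that was called lower in each colony within the low stretch was MCPH1, which encodes the DNA damage protein microcephalin. It starts at position 6406592 and differed from DMSO by log2 -0.50 ± 0.11 in BR8, -0.73 ± 0.11 in BR10 and -0.67 ± 0.11 in BR16, with adjusted p = 0.00489 in BR8, 0.00109 in BR10 and 0.0012 in BR16 (limma). At the other end, UBE2V2, a ubiquitin-conjugating enzyme variant whose gene starts at position 48008400, gave -0.52 ± 0.11 in BR8, -0.36 ± 0.11 in BR10 and -0.83 ± 0.11 in BR16, with adjusted p = 0.00549, 0.035 and 0.000547. The next tested gene, SNAI2 at position 48917604, which encodes the transcription factor Slug, lay in the other direction at 2.19 ± 0.13 in BR8, 2.18 ± 0.13 in BR10 and 1.78 ± 0.13 in BR16. Both ends were picked after their values were seen.

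**Figure D3:**
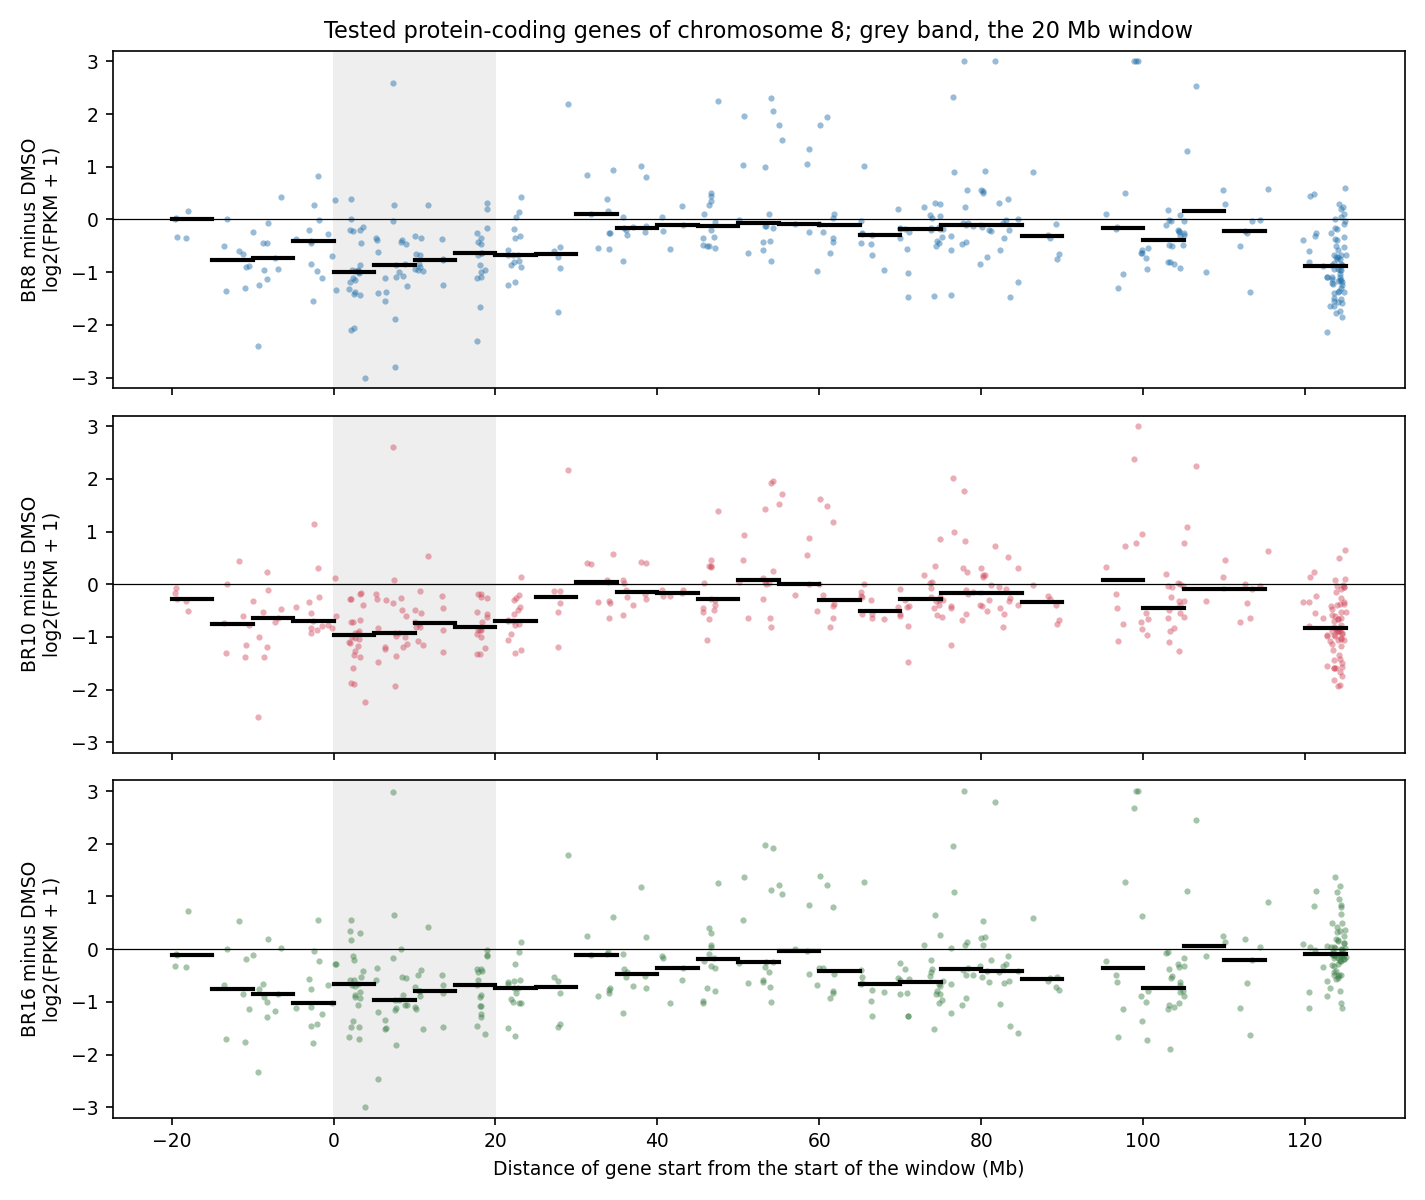
Each point is a tested protein-coding gene of chromosome 8, placed by the distance of its start from the start of the window (grey band), with its difference from DMSO in log2(FPKM + 1) for BR8, BR10 and BR16 from top to bottom; values beyond 3 or -3 are drawn at 3 or -3. Black lines are medians over 5 Mb, which lie below -0.5 throughout the band in each colony and nearer 0 over most of the long arm.

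At the far end of the long arm the colonies parted. The 69 genes after 140 Mb, which are rich in GC (median 63.3%, against 48.0% for the members), had medians of -0.87 in BR8 and -0.83 in BR10 but -0.10 in BR16. After each library's trend with GC content was removed, those medians became -0.41, -0.40 and -0.25. The members' medians under the same correction were -0.85 in BR8, -0.86 in BR10 and -0.84 in BR16. The window and the end of the long arm were thus farther apart with the trend removed in BR8 and BR10.

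Compared with the rest of the genome, cut into 149 windows of 20 Mb that each held at least 20 tested protein-coding genes, the window at 20 to 40 Mb of chromosome 8 had the lowest median in BR10 and BR16 and the second lowest in BR8. The lowest other window was chromosome 8 from 140 Mb in BR8 (-0.87) and in BR10 (-0.83), and chromosome 8 before 20 Mb in BR16 (-0.75). By the highest of its 3 colony medians, which is low only where each colony is low, the window ranked first at -0.80 and chromosome 8 before 20 Mb ranked second at -0.46. Chromosome 10 from 100 to 120 Mb ranked 3 at -0.32, chromosome 8 from 40 to 60 Mb 4 at -0.30 and chromosome 10 from 120 to 140 Mb 5 at -0.28. Stretches low in each colony were thus not confined to chromosome 8. With the GC trend removed, chromosome 10 from 100 to 120 Mb had medians of -0.41 in BR8, -0.34 in BR10 and -0.34 in BR16. The ranks of the window at 20 to 40 Mb of chromosome 8 were then again 2 in BR8, 1 in BR10 and 1 in BR16, and the lowest window in BR8 was chromosome 2 from 220 to 240 Mb (-0.89). After 24 h of BLU667 the window ranked 15 from the lowest (median -0.23).

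**Figure D4:**
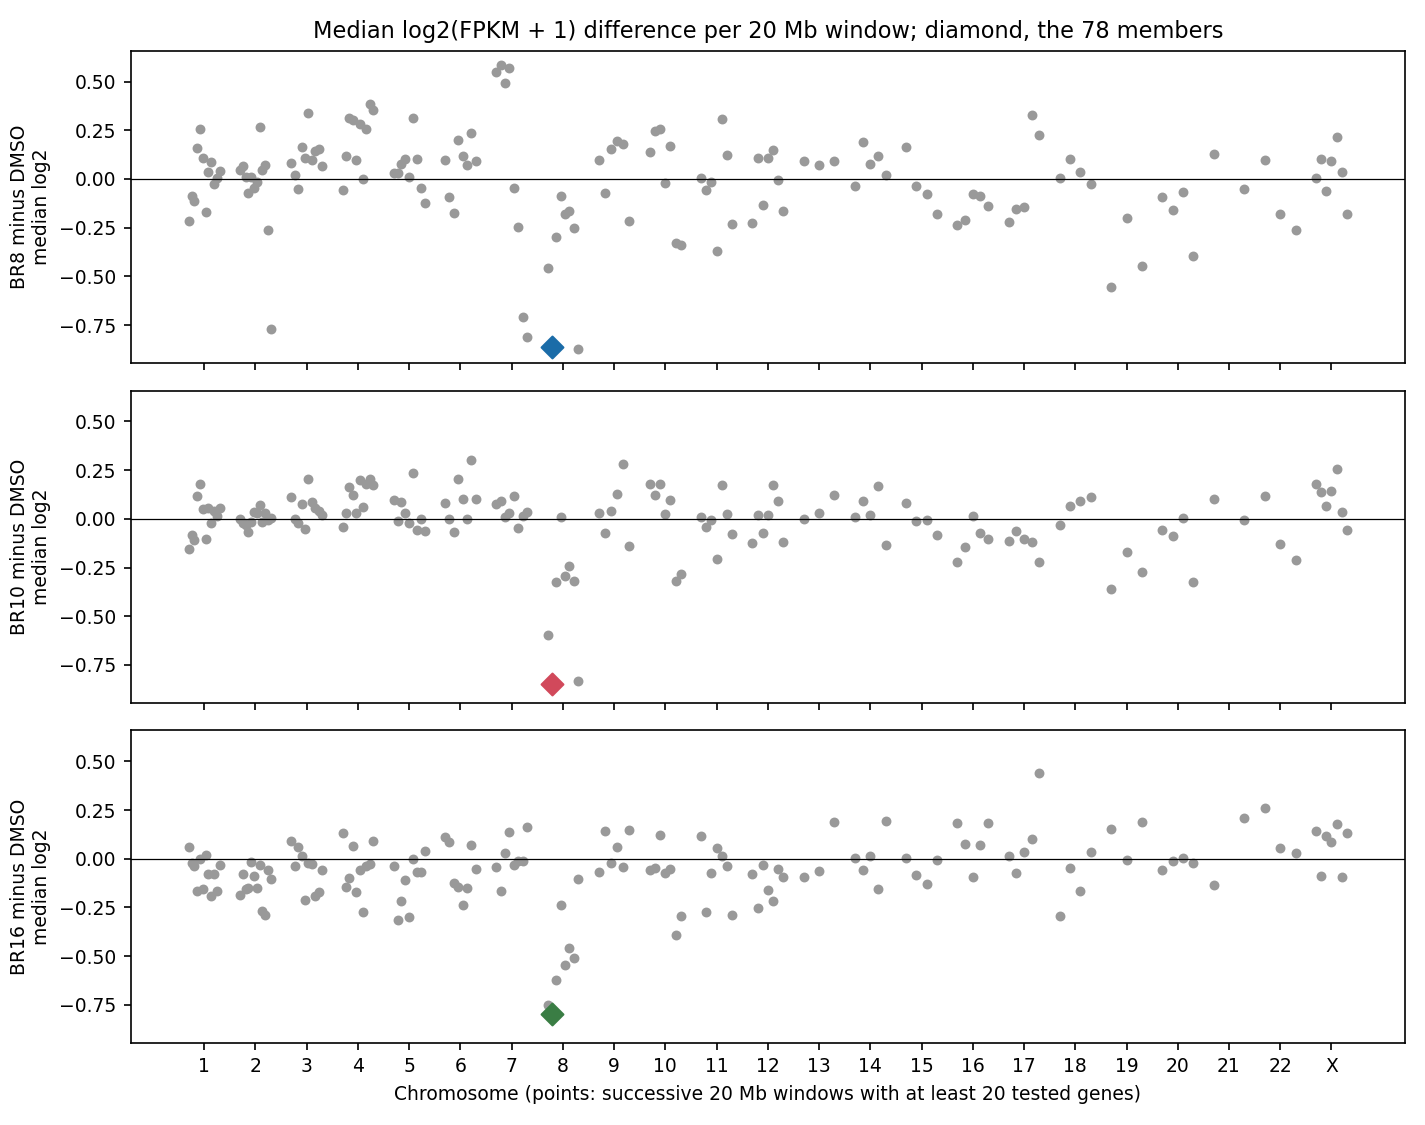
Each point is a window of 20 Mb with at least 20 tested protein-coding genes, placed by chromosome, with the median difference from DMSO in log2(FPKM + 1) for BR8, BR10 and BR16 from top to bottom. Diamonds mark the 78 members, at -0.86, -0.85 and -0.80, and no other window is below -0.5 in all 3 panels.

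By whole chromosome, chromosome 8 outside the window had medians of -0.32 in BR8, -0.35 in BR10 and -0.37 in BR16. Chromosome 19 had medians of -0.47, -0.33 and 0.13 in the same order, so BR16 lay on the other side of 0, and the remaining chromosomes had medians between -0.19 and 0.16.

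Among death receptors and regulators of cell death, 8 of the 9 tested members were called lower in the mean of the colonies and 1, PTK2B, higher. Of all 78 members 84.6% were called lower in that mean, and of all tested genes 26.3%. Counts by role list, here and below, therefore describe the chosen set and carry no test. TNFRSF10B (ENSG00000120889, chr8:23020133-23069179, minus strand) encodes TRAIL receptor 2, which carries a death domain. It had 27.4 and 26.00 FPKM in BR8, 22.2 and 24.2 in BR10, 26.4 and 24.1 in BR16 and 26.1 and 26.3 in BLU667-treated cells, against 55.5 and 52.1 in DMSO-treated cells. All 6 colony libraries and both BLU667 libraries lay at about the same level, below DMSO. TNFRSF10A, the gene of TRAIL receptor 1, had 5.11 and 5.61 FPKM in BR8, 4.95 and 6.93 in BR10, 3.61 and 3.55 in BR16 and 2.91 and 2.36 in BLU667-treated cells, against 12.01 and 11.5 in DMSO-treated cells, with its lowest values after 24 h of BLU667. TNFRSF10D, a decoy receptor whose death domain is cut short, stood at 46.97% of DMSO in BR8, 46.1% in BR10 and 27.4% in BR16. The other decoy receptor gene of the cluster, TNFRSF10C, stayed at or below 0.339 FPKM in every library. These receptor genes are paralogues, and the sources used here do not say how reads shared between them were counted.

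BNIP3L (ENSG00000104765, chr8:26382898-26505636, plus strand), which encodes a receptor for the removal of mitochondria by autophagy, had 10.7 and 12.1 FPKM in BR8, 14.9 and 13.7 in BR10, 11.4 and 11.7 in BR16 and 30.7 and 29.7 in BLU667-treated cells, against 33.2 and 36.9 in DMSO-treated cells. Its colony libraries were all below every parental library, and the parental groups lay close together. CLU, the gene of the chaperone clusterin, had 12.9 and 13.2 FPKM in BR8, 25.8 and 26.5 in BR10, 23.8 and 27.2 in BR16 and 69.6 and 69.7 in BLU667-treated cells, against 55.8 and 46.2 in DMSO-treated cells. BR8 was the lowest colony, and the BLU667 libraries were the highest. CCAR2, BAG4 and RHOBTB2 were also called lower, at 39.97%, 40.1% and 40.1% of DMSO over the colonies.

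Of 14 tested genes of the TRAIL pathway that lie elsewhere in the genome, 8 were called higher in the mean of the colonies and 6 neither, where 22.9% of all tested genes were called higher. The colonies were not alike: 9 were called higher in BR8, 4 higher and 1 lower in BR10, and 6 higher in BR16, with medians of 0.46, 0.14 and 0.37. TNFRSF11B, a soluble decoy for TRAIL on the long arm of chromosome 8, had 35.9 and 37.2 FPKM in BR8, 8.25 and 8.903 in BR10, 10.1 and 11.7 in BR16 and 4.24 and 2.52 in BLU667-treated cells, against 0.649 and 1.07 in DMSO-treated cells (log2 3.13 ± 0.15, adjusted p = 1.6e-06 by limma). CFLAR, which encodes the inhibitor cFLIP, had 9.07 and 9.43 FPKM in BR8, 5.38 and 5.09 in BR10, 6.97 and 7.18 in BR16 and 8.21 and 7.73 in BLU667-treated cells, against 2.71 and 2.602 in DMSO-treated cells (log2 1.13 ± 0.06, adjusted p = 2.66e-06 by limma). Both were higher in every colony library than in both DMSO libraries. The ligand gene TNFSF10 had 1.49 and 1.897 FPKM in BR8, 1.43 and 1.32 in BR10, 0.567 and 0.633 in BR16 and 1.16 and 0.596 in BLU667-treated cells, against 0.171 and 0.218 in DMSO-treated cells, and BIRC3, an inhibitor of apoptosis, had 17.4 and 18.00 FPKM in BR8, 5.03 and 5.38 in BR10, 10.7 and 10.1 in BR16 and 9.79 and 4.85 in BLU667-treated cells, against 4.34 and 4.93 in DMSO-treated cells.

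Of 15 tested members in transcription and chromatin, 14 were called lower and 1 (TRIM35) was not called. Of all 78 members 84.6% were called lower, and of all tested genes 26.3%. GTF2E2, a subunit of the general factor TFIIE, had 7.67 and 9.97 FPKM in BR8, 8.87 and 9.78 in BR10, 9.85 and 8.36 in BR16 and 12.2 and 11.4 in BLU667-treated cells, against 16.1 and 16.9 in DMSO-treated cells. The colonies matched each other for this gene, and the BLU667 libraries lay between them and DMSO. ASH2L, a core subunit of histone H3 lysine methyltransferase complexes, stood at 48.99%, 48.4% and 46.9% of DMSO in BR8, BR10 and BR16. ELP3, the catalytic subunit of Elongator, stood at 44.2%, 46.8% and 44.9%. NSD3, a histone methyltransferase, stood at 40%, 48.8% and 33.7%. Genes of RNA polymerase III transcription, POLR3D and BRF2, were at 46.3% and 48.3% over the colonies.

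TACC1, which encodes a coiled-coil protein of the spindle and nucleus, had 4.98 and 4.896 FPKM in BR8, 3.99 and 4.07 in BR10, 3.01 and 2.64 in BR16 and 5.54 and 5.44 in BLU667-treated cells, against 9.37 and 12.01 in DMSO-treated cells, with BR16 the lowest colony. ZNF703, a transcriptional corepressor gene, had 3.28 and 1.99 FPKM in BR8, 5.75 and 6.53 in BR10, 10.7 and 9.37 in BR16 and 11.7 and 8.99 in BLU667-treated cells, against 17.8 and 15.8 in DMSO-treated cells, and its colony levels spread widely. ZNF395 differed little, at log2 -0.43 ± 0.09 in BR8, -0.27 ± 0.09 in BR10 and 0.01 ± 0.09 in BR16, and its call in the mean of the colonies was lost in 10 of the alternative settings.

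In genome maintenance and cell division, 6 of 7 tested members were called lower (26.3% of all tested genes were) and NUDT18 was not. WRN (ENSG00000165392, chr8:31033801-31173769, plus strand), the RecQ helicase mutated in Werner syndrome, had 2.97 and 2.68 FPKM in BR8, 2.11 and 2.67 in BR10, 1.45 and 1.85 in BR16 and 3.87 and 3.81 in BLU667-treated cells, against 5.97 and 7.105 in DMSO-treated cells. Every colony library lay below the BLU667 libraries, which lay below DMSO. CDCA2, which recruits protein phosphatase 1 to chromosomes at mitotic exit, had 9.17 and 8.51 FPKM in BR8, 8.56 and 8.18 in BR10, 3.75 and 3.69 in BR16 and 1.15 and 0.957 in BLU667-treated cells, against 22.7 and 27.5 in DMSO-treated cells. ESCO2, the acetyltransferase that makes sister chromatids cohere, had 3.72 and 3.63 FPKM in BR8, 2.26 and 2.43 in BR10, 1.498 and 1.35 in BR16 and 0.0428 and 0.0866 in BLU667-treated cells, against 6.47 and 8.75 in DMSO-treated cells. For both CDCA2 and ESCO2 the BLU667 libraries were the lowest and the colonies lay between them and DMSO. REEP4, which clears endoplasmic reticulum from mitotic chromosomes, showed the same order, at 24.7% of DMSO over the colonies and 13.3% after 24 h of BLU667. CHMP7, an ESCRT-III protein of nuclear envelope sealing, was at 53.3% over the colonies.

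**Figure D5:**
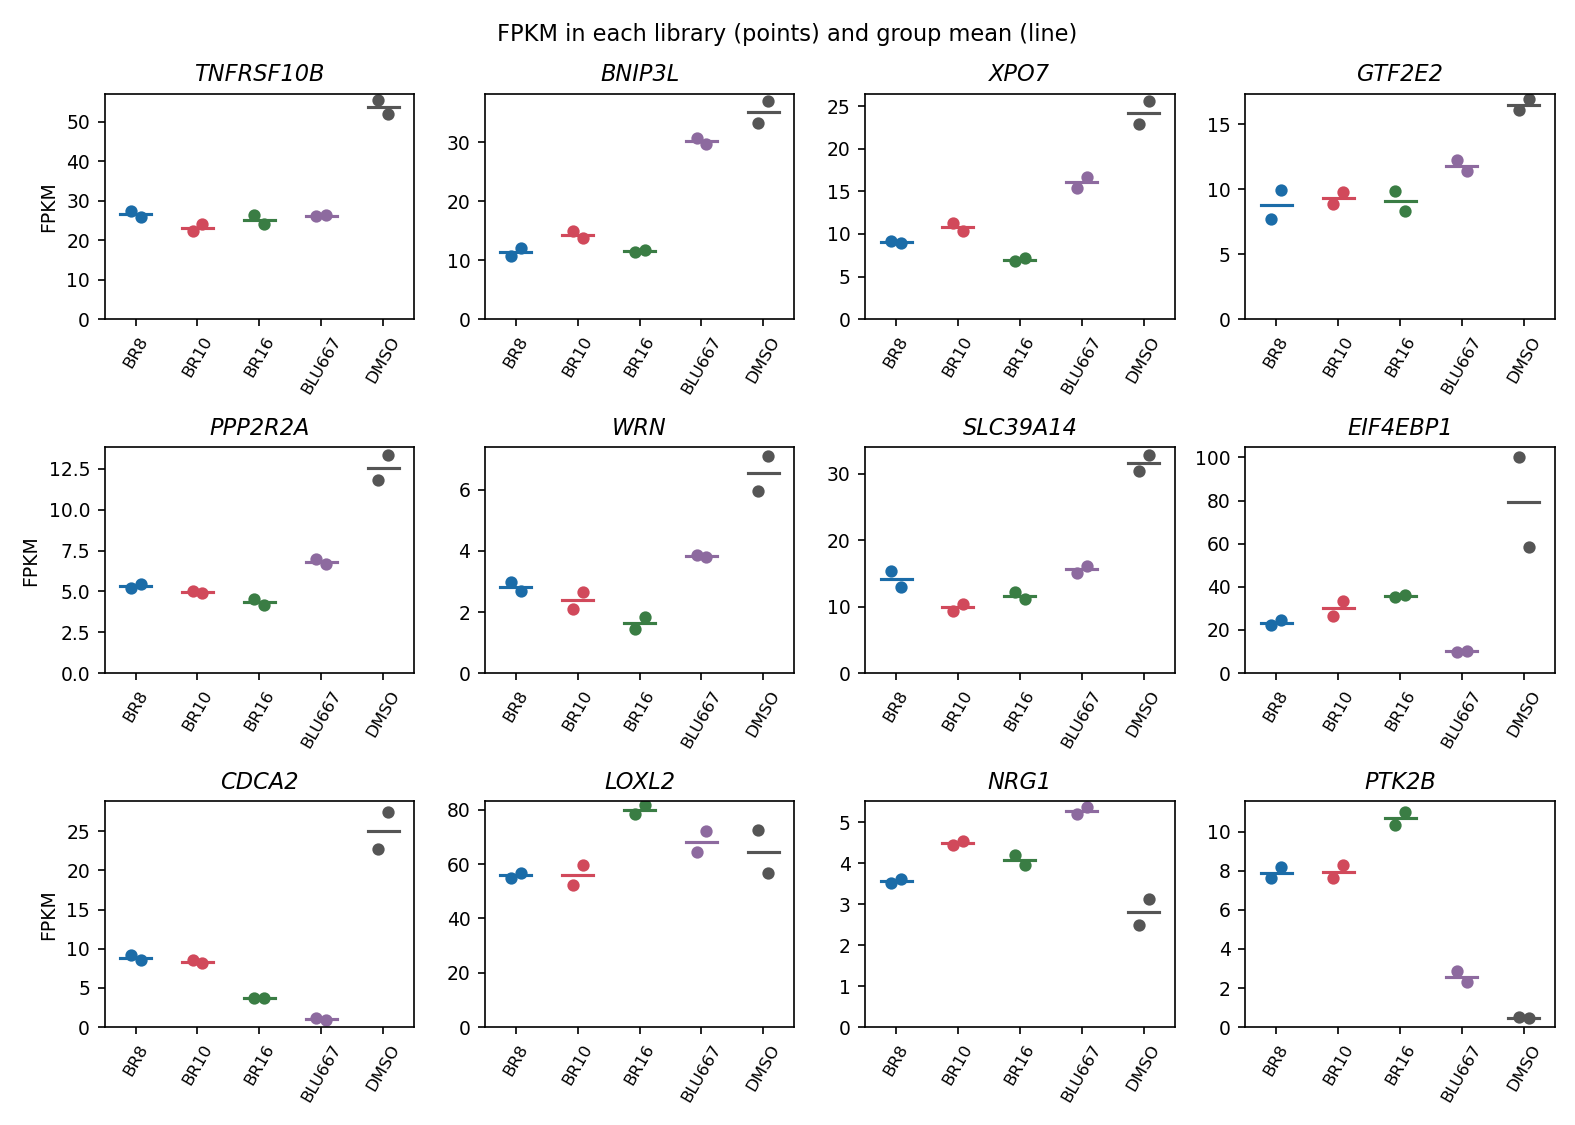
Each panel gives 1 member, with FPKM on the vertical axis from 0, points for the 2 libraries of each group and a line for the group mean. TNFRSF10B, BNIP3L, XPO7, GTF2E2, PPP2R2A, WRN and SLC39A14 lie lower in the 3 colonies than in DMSO, and EIF4EBP1 and CDCA2 are lowest after 24 h of BLU667. LOXL2 overlaps DMSO in BR8 and BR10 and lies above it in BR16, and NRG1 and PTK2B are higher in the colonies than in DMSO.

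The 3 tested protein phosphatase genes were all called lower in the mean of the colonies. PPP2R2A (ENSG00000221914, chr8:26291491-26372680, plus strand), which encodes the B55 alpha regulatory subunit of PP2A, had 5.18 and 5.44 FPKM in BR8, 5.02 and 4.93 in BR10, 4.52 and 4.199 in BR16 and 6.99 and 6.65 in BLU667-treated cells, against 11.8 and 13.3 in DMSO-treated cells. Its colony libraries were all below every parental library. PPP2CB, a catalytic subunit of PP2A, had 19.2 and 16.9 FPKM in BR8, 17.3 and 13.97 in BR10, 18.4 and 16.8 in BR16 and 34.4 and 31.9 in BLU667-treated cells, against 20.9 and 25.97 in DMSO-treated cells, so that the difference from DMSO was smaller and BLU667 was highest. PPP3CC, a catalytic subunit of calcineurin, was lower chiefly in BR10, at log2 -0.22 ± 0.14 in BR8, -0.72 ± 0.14 in BR10 and -0.13 ± 0.14 in BR16, and its call over the colonies was lost in 8 alternative settings. Of 12 tested PP2A subunit genes elsewhere in the genome, 4 were called lower, 2 higher and 6 neither in the mean of the colonies, counts near the 26.3% and 22.9% of all tested genes. PPP2R3A had the largest difference of them at log2 0.97 ± 0.09, adjusted p = 6.09e-05 by limma, and PPP2R5D the lowest at -0.42 ± 0.09, adjusted p = 0.00393 by limma.

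Of 15 tested members in membrane traffic and organelles, 13 were called lower (26.3% of all tested genes were) and 2 were not called. XPO7 (ENSG00000130227, chr8:21919671-22006585, plus strand), a nuclear export and import receptor gene, had 9.197 and 8.99 FPKM in BR8, 11.3 and 10.3 in BR10, 6.83 and 7.13 in BR16 and 15.4 and 16.7 in BLU667-treated cells, against 22.9 and 25.5 in DMSO-treated cells. SLC39A14, an importer of zinc and manganese, had 15.4 and 12.9 FPKM in BR8, 9.39 and 10.4 in BR10, 12.1 and 11.2 in BR16 and 15.1 and 16.1 in BLU667-treated cells, against 30.5 and 32.8 in DMSO-treated cells. SARAF, which turns off store-operated calcium entry, had 32.1 and 34.1 FPKM in BR8, 30.04 and 28.1 in BR10, 26.1 and 23.7 in BR16 and 62.6 and 69.9 in BLU667-treated cells, against 39.9 and 42.9 in DMSO-treated cells. In these 3 genes all colony libraries lay below both DMSO libraries, while BLU667 was below DMSO in the first pair and above it in SARAF. The 2 members not called were ATP6V1B2, a subunit of the proton pump of lysosomes, and PLEKHA2, which binds phosphoinositides. Their differences were 0.36 ± 0.08 in BR8, 0.12 ± 0.08 in BR10 and -0.29 ± 0.08 in BR16 for ATP6V1B2 and 0.20 ± 0.10 in BR8, -0.62 ± 0.10 in BR10 and -0.01 ± 0.10 in BR16 for PLEKHA2.

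Of 5 tested matrix and cell surface genes, 2 were called lower in the mean of the colonies (26.3% of all tested genes were) and 3 neither. ADAM9, a membrane metalloprotease and the most abundant member, had 104 and 107 FPKM in BR8, 71.6 and 68.3 in BR10, 76.3 and 79.5 in BR16 and 165 and 171 in BLU667-treated cells, against 77.4 and 91.98 in DMSO-treated cells. LOXL2, a lysyl oxidase that crosslinks collagen, had 54.7 and 56.9 FPKM in BR8, 52.4 and 59.7 in BR10, 78.3 and 81.6 in BR16 and 64.4 and 72.1 in BLU667-treated cells, against 72.4 and 56.7 in DMSO-treated cells. For both, colony and DMSO libraries overlapped. BMP1, a procollagen protease, was called higher in BR8 and BR16 and was not called in BR10, at log2 0.39 ± 0.13 in BR8, -0.28 ± 0.13 in BR10 and 0.55 ± 0.13 in BR16. SCARA3, a scavenger receptor gene, had 6.97 and 6.096 FPKM in BR8, 11.1 and 14.6 in BR10, 22.5 and 22.6 in BR16 and 7.48 and 6.295 in BLU667-treated cells, against 57.4 and 45.9 in DMSO-treated cells, and ENTPD4, a nucleotide hydrolase of the Golgi, stood at 75.7% of DMSO over the colonies.

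Among growth factors, receptors and signalling genes, 4 of 6 were called lower (26.3% of all tested genes were), 1 higher and 1 neither. STC1 (ENSG00000159167, chr8:23841915-23854807, minus strand), the gene of the secreted glycoprotein stanniocalcin, had the largest difference of the set, with 0.274 and 0.386 FPKM in BR8, 2.45 and 2.39 in BR10, 0.727 and 0.435 in BR16 and 1.34 and 1.37 in BLU667-treated cells, against 13.1 and 17.1 in DMSO-treated cells. The DMSO libraries were far above all others, and BR10 was the highest colony. EIF4EBP1, the repressor of cap-dependent translation that mTOR inactivates, had 22.3 and 24.4 FPKM in BR8, 26.4 and 33.6 in BR10, 35.4 and 36.1 in BR16 and 9.74 and 10.46 in BLU667-treated cells, against 100.1 and 58.3 in DMSO-treated cells. The DMSO replicates of EIF4EBP1 differed widely, and the BLU667 libraries were lowest. LZTS1, a leucine zipper gene with growth-restraining roles, was at 32.2%, 61.4% and 79.4% of DMSO in BR8, BR10 and BR16. FZD3, a Wnt receptor gene, stood at 51.1% over the colonies.

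In metabolism and redox, 6 of 7 tested members were called lower (26.3% of all tested genes were) and EPHX2 higher. GSR (ENSG00000104687, chr8:30678061-30727999, minus strand), glutathione reductase, had 22.1 and 22.7 FPKM in BR8, 39.2 and 38.5 in BR10, 20.7 and 24.4 in BR16 and 63.5 and 63.8 in BLU667-treated cells, against 43.1 and 41.8 in DMSO-treated cells. BR10 stood just below DMSO and above the other colonies, and the BLU667 libraries were the highest. PLPBP, which keeps pyridoxal phosphate in balance, was at 40.9% of DMSO over the colonies, and CCDC25, a coiled-coil protein gene, at 42.8%. PLPP5, a lipid phosphatase gene, was at 75.8% over the colonies but 199.9% after 24 h of BLU667.

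Of 5 cytoskeleton and adhesion genes, 4 were called lower (26.3% of all tested genes were) and DMTN was not. SORBS3, the gene of the adhesion adaptor vinexin, had 1.68 and 1.57 FPKM in BR8, 1.603 and 2.36 in BR10, 6.301 and 6.32 in BR16 and 5.45 and 4.47 in BLU667-treated cells, against 12.7 and 7.71 in DMSO-treated cells. DPYSL2, which binds tubulin, had 2.03 and 1.92 FPKM in BR8, 5.09 and 5.49 in BR10, 1.69 and 1.83 in BR16 and 8.36 and 9.47 in BLU667-treated cells, against 7.24 and 6.29 in DMSO-treated cells. The colony that stayed nearest DMSO was BR16 for SORBS3 and BR10 for DPYSL2. RBPMS, an RNA-binding protein gene, was at 53.8% of DMSO over the colonies and 189.5% after 24 h of BLU667. A further 6 tested members were in no role list, and all 6 were called lower, as were 84.6% of all 78 members.

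The members called higher in the mean of the colonies were PTK2B, NRG1 and EPHX2. PTK2B (ENSG00000120899, chr8:27311482-27459391, plus strand), the gene of the focal adhesion kinase relative PYK2, had 7.63 and 8.19 FPKM in BR8, 7.61 and 8.31 in BR10, 10.4 and 11.02 in BR16 and 2.87 and 2.29 in BLU667-treated cells, against 0.5098 and 0.446 in DMSO-treated cells. Every colony library exceeded every parental library, and this was the 1 member for which that held. NRG1 (ENSG00000157168, chr8:31639386-32767959, plus strand), which encodes the ErbB receptor ligand neuregulin, had 3.53 and 3.61 FPKM in BR8, 4.46 and 4.54 in BR10, 4.21 and 3.96 in BR16 and 5.201 and 5.37 in BLU667-treated cells, against 2.499 and 3.12 in DMSO-treated cells. Its colony libraries lay between DMSO and BLU667, and its call in BR8 alone was lost in 14 alternative settings. EPHX2, soluble epoxide hydrolase, had 1.35 and 1.01 FPKM in BR8, 0.899 and 0.917 in BR10, 1.86 and 1.76 in BR16 and 2.36 and 2.62 in BLU667-treated cells, against 0.735 and 0.862 in DMSO-treated cells, a small difference whose call over the colonies was lost in 3 settings.

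The 48 members below the filter could not be compared. Of these, 16 were at 0 in all 10 libraries, and the highest was FBXO16 at 1.16 FPKM in 1 library. They include genes of tissue-restricted function, such as the neurofilament genes NEFL and NEFM, the testis metalloproteases ADAM2 and ADAM18, and the adrenergic receptor genes ADRA1A and ADRB3. The rows of the window that are not protein-coding were outside the rule, but they were measured in the same libraries that chose the set. Of 255, 20 passed the filter, and 5, 6 and 6 of them were called lower in BR8, BR10 and BR16 with 2, 0 and 2 called higher. Elsewhere in the genome 11.7%, 10.6% and 10.7% of 2784 such rows were called lower. The medians of the 20 were 0.02, -0.27 and -0.20, with values below 0 in 10, 13 and 13 of them. Of the 12 that overlap no protein-coding row, 3, 4 and 4 were called lower and 1, 0 and 2 higher, with medians of 0.37, -0.15 and -0.05, so that the typical row of these lay above or near 0. Most stood at low FPKM, where log2(FPKM + 1) understates change. The highest in DMSO, AC090204.1 (15.0 and 19.8 FPKM), differed by -1.31, -1.02 and -0.70. LINC01605 (3.15 and 3.37) differed by 0.44, -0.11 and 0.76. AF279873.2, called higher in BR16, was at 0 in all parental libraries and reached 1 FPKM only in BR16.

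How the colonies differed from each other was not part of the rule and was tested. Between BR8 and BR10, 9 members were lower and 8 higher, where 11.5% of tested genes were lower and 11.3% higher. Between BR8 and BR16 the counts were 16 lower and 16 higher (24.5% and 24.1% of tested genes), and between BR10 and BR16 they were 18 lower and 20 higher (22.0% and 21.1%). Leaving out 1 library moved these counts widely: the 8 became 3 or 5 without any 1 library of BR8 or BR10, and the 20 became 10 without BR16 replicate 2. The median differences were -0.01, 0.02 and 0.03 in that order. In a moderated F test for any difference among the colonies, 45 of the 78 members were called, where 58.1% of tested genes were, and without either BR16 replicate the count was 29. The share of members called in the fit of all libraries was near that background. No share of all tested genes is given for the fits that left out a library.

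The members with the largest F were DPYSL2, PDLIM2, CDCA2, SCARA3, CLU and STC1. DPYSL2 was lower in BR8 than in BR10 (log2 -1.08 ± 0.10, adjusted p = 0.000173) and higher in BR10 than in BR16 (1.19 ± 0.10, adjusted p = 0.000126). PDLIM2, a gene of a LIM-domain adaptor, had 0.496 and 0.412 FPKM in BR8, 0.534 and 0.527 in BR10, 2.49 and 2.202 in BR16 and 0.913 and 0.8500 in BLU667-treated cells, against 3.16 and 2.62 in DMSO-treated cells. It was lower in BR8 than in BR16 (-1.20 ± 0.11, adjusted p = 0.000292) and lower in BR10 than in BR16 (-1.13 ± 0.11, adjusted p = 0.000336). CDCA2 was higher in BR8 than in BR16 (1.06 ± 0.10, adjusted p = 0.000318) and higher in BR10 than in BR16 (0.99 ± 0.10, adjusted p = 0.000372). SCARA3 was lowest in BR8, with a difference from BR16 of -1.65 ± 0.15, adjusted p = 0.000274.

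CLU was lower in BR8 than in BR10 (-0.95 ± 0.10, adjusted p = 0.000472) and than in BR16 (-0.91 ± 0.10, adjusted p = 0.000551). STC1 was higher in BR10 than in BR16 (1.12 ± 0.14, adjusted p = 0.000782) and lower in BR8 than in BR10 (-1.36 ± 0.14, adjusted p = 0.000351). GSR was lower in BR8 than in BR10 (-0.77 ± 0.09, adjusted p = 0.000519) and higher in BR10 than in BR16 (0.76 ± 0.09, adjusted p = 0.000516). These calls held in every alternative setting that was run. GSR was singled out after its values were seen.

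Across the 78 members, differences between BR16 and the other colonies ran with GC content. The Spearman correlation with GC was -0.72 for BR8 minus BR16 and -0.61 for BR10 minus BR16, close to -0.69 and -0.60 over the other protein-coding genes. The 26 members from 20 to 25 Mb (median GC 57.2%) had a median BR8 minus BR16 difference of -0.26, which became 0.03 with the GC trend removed. For BR10 minus BR16 the values were -0.29 and -0.07. Under that correction the BR8 minus BR16 calls of REEP4 and PPP2R2A turned round in sign, as did the BR10 minus BR16 call of ZNF703. Of the 32 members called in BR8 minus BR16, 19 kept their call with the same sign. Of the 38 called in BR10 minus BR16, 23 did.

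After 24 h of BLU667, 37 members were called lower than DMSO, 21 higher and 20 neither, where 31.2% of tested genes were called lower and 29.0% higher. This comparison uses the same 2 DMSO libraries against which the set was chosen, so these counts and the median are a description and are no independent support for a low block. The members' median was -0.23 and that of the other protein-coding genes -0.06. From 20 to 25 Mb, 16 of 26 members were called lower and 3 higher, and from 30 to 35 Mb 4 of 14 lower and 5 higher. The response to 24 h of drug was thus mixed along the window.

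The largest falls after 24 h were those of CDCA2 (log2 -3.66 ± 0.10, adjusted p = 8.5e-08), ESCO2 (log2 -3.003 ± 0.13, adjusted p = 5.2e-07), EIF4EBP1 (log2 -2.80 ± 0.22, adjusted p = 1.47e-05) and STC1 (log2 -2.76 ± 0.14, adjusted p = 1.32e-06). The first pair belong to the genome maintenance and cell division list. The largest rises were those of PTK2B (log2 1.27 ± 0.10, adjusted p = 1.37e-05), PLEKHA2 (log2 1.01 ± 0.10, adjusted p = 4.91e-05), ADAM9 (log2 0.99 ± 0.09, adjusted p = 4.07e-05) and EPHX2 (log2 0.96 ± 0.11, adjusted p = 0.000156). TNFRSF10B fell (log2 -1.01 ± 0.08, adjusted p = 1.66e-05), as did WRN (log2 -0.63 ± 0.12, adjusted p = 0.00232) and PPP2R2A (log2 -0.79 ± 0.08, adjusted p = 7.25e-05). CLU (log2 0.45 ± 0.10, adjusted p = 0.00561), GSR (log2 0.57 ± 0.09, adjusted p = 0.000557), SARAF (log2 0.66 ± 0.09, adjusted p = 0.000338) and RBPMS (log2 0.87 ± 0.11, adjusted p = 0.000177) rose, although all 4 were lower than DMSO in the mean of the colonies. BNIP3L (log2 -0.21 ± 0.09, adjusted p = 0.0729), NSD3 (-0.06 ± 0.09, adjusted p = 0.601) and BAG4 (-0.05 ± 0.16, adjusted p = 0.804) were not called after 24 h.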

How the data were processed

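Whole-transcriptome libraries of 5 groups of TPC-1 cells, 2 each, were compared. The authors deposited 1 table of FPKM values for 58735 rows; per the submitters' processing notes the tools were CASAVA, STAR 2.5, HTSeq 0.6.1 and DESeq2, given as version 2, with GRCh38 (hg38), and other settings are not given in the sources used here. FPKM times the gene's length came out as whole reads in 100% of values, within a tolerance of 0.05, which puts 15243703 to 21904245 reads in the genes of each library. A count model had been planned, but since the table holds FPKM, log2(FPKM + 1) was fitted with limma 3.58.1 (R 4.3.3), which understates the change of low genes.

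Genes had to reach 1 FPKM in 2 libraries (13927 genes). All 10 libraries entered 1 fit with a mean for each of 5 groups (residual degrees of freedom 5) and a trended prior variance, and p-values were adjusted by Benjamini-Hochberg over all tested genes with a threshold of 0.05. The fit was first checked on simulated data. Coordinates and GC content came from GENCODE release 29, which matched all 126 members. Summaries used Python 3.11.15 with pandas 2.3.3.

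The members, role lists and named genes were chosen with earlier results of these data known. Genes were named by rule: the 10 lowest members and those called higher in the mean of the colonies, 3 genes on each side of both ends, up to 4 members of each role list with the highest mean FPKM, the 6 largest F among colonies, up to 4 members each way after 24 h of BLU667, and up to 4 called genes each way of the TRAIL and PP2A lists. Other genes named are examples chosen after their values were seen. Alternatives were other scalings, filters and pseudocounts, removal of each library's GC trend, a replicate block, leaving out each library and, added after seeing the data, voom on the recovered reads.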

Additional observations from a re-analysis of the deposited data

Results flagged for a closer look

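A difference between 2 colonies of at least 1 on the log2 scale that passed limma's test of the difference itself was found for 8 members of the block, in 12 comparisons. Below -1 lay 2.56% of the tested members (2 of 78) and 1.96% of other protein-coding genes in BR8 minus BR10. The shares were 6.41% and 7.06% in BR8 minus BR16, and 2.56% and 6.19% in BR10 minus BR16. Falls of this size were thus near or under their share elsewhere, and no such share is given for the rises. Between BR8 and BR10 the flagged members were DPYSL2 (-1.08) and STC1 (-1.36), both lower in BR8. Between BR8 and BR16, lower in BR8 were SCARA3 (-1.65), ZNF703 (-1.63), SORBS3 (-1.48), PDLIM2 (-1.20) and LZTS1 (-1.06), and CDCA2 (1.06) was higher. Between BR10 and BR16, lower in BR10 were SORBS3 (-1.31) and PDLIM2 (-1.13), and DPYSL2 (1.19) and STC1 (1.12) were higher. The GC content of genes moved with the BR16 differences. Over all alternatives, removal of each library's GC trend included, the BR8 minus BR16 difference of LZTS1 ranged from -1.28 to -0.55, of ZNF703 from -1.93 to -0.80, of SORBS3 from -1.92 to -0.73 and of PDLIM2 from -2.32 to -0.88.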

How the results depend on the processing

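The members' median differences from DMSO stayed below 0 in each colony in the alternatives run. Between colonies the medians were near 0 and some turned with the GC trend removed: from 25 to 30, 30 to 35 and 35 to 40 Mb, BR8 minus BR16 became -0.12, -0.05 and -0.01, against 0.01, 0.10 and 0.11, and BR10 minus BR16 became -0.10, -0.004 and -0.02, against 0.05, 0.20 and 0.03. The median log2 differences of the tested members from DMSO in BR8, BR10, BR16 and the mean of the colonies were -0.97, -0.89, -0.91 and -0.96 with a filter at 5 FPKM, and -0.43, -0.51, -0.46 and -0.45 with no filter, which adds members near 0. They were -1.01, -1.02, -0.96 and -1.03 with a pseudocount of 0.1, -0.996, -0.979, -0.910 and -0.998 with 0.25, and -1.03, -0.97, -1.03 and -1.05 with voom on recovered reads, added after seeing the data. Quantile normalization gave -0.78 in BR8 and -0.80 in BR10, and BR16 had -0.84 with the GC trend removed, with or without the replicate block, and -0.78 with median-of-ratios scaling. Leaving out 1 library gave medians from -0.90 to -0.84 in BR8, -0.87 to -0.79 in BR10 and -0.85 to -0.69 in BR16. With the colony means as 3 replicates, 28 members were called lower. That setting also left out the BLU667 libraries, and the cause of the smaller count was not tested. Between colonies, members called higher with the GC trend removed and the block were 10 in BR8 minus BR16 and 11 in BR10 minus BR16, the last being 13 without the block; the cause was not tested. Leaving out 1 library gave 3 to 12 members higher in BR8 minus BR10, 9 to 17 lower and 9 to 18 higher in BR8 minus BR16, 8 to 19 lower and 10 to 23 higher in BR10 minus BR16, and 29 to 51 called by the F test. Noncoding rows called lower in BR8 numbered 3 among those with no overlap. Replicate numbers did not pair the libraries: deviations of same-numbered libraries correlated at -0.16 to 0.11 between groups, and with the replicate block 61, 58, 60 and 65 members were called lower in BR8, BR10, BR16 and the mean of the colonies. With crossed numbers for BR10, 60 were called lower. The counts in this paragraph come without the share of all tested genes under the same setting. They describe how calls moved with the processing and not an excess among the members.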

Other observations

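Stretches that were low in BR8 and near 0 in the other colonies lay on chromosomes 2 and 7. The 74 tested genes of chromosome 7 from 140 to 160 Mb had a median difference from DMSO of -0.81 in BR8, 0.03 in BR10 and 0.16 in BR16, and the 61 genes of chromosome 2 from 220 to 240 Mb had -0.77, 0.01 and -0.10. In the same colony the 4 windows of chromosome 7 before 80 Mb had medians from 0.49 to 0.59. With the GC trend removed the low windows had -0.77 and -0.89 in BR8. The difference between colonies was not tested for these windows.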
